A study of Mus musculus with 6 samples.

Results

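The 10 genes described here are core genes of Notch signalling: the receptors Notch1, Notch2 and Notch4, the ligands Dll1, Dll4, Jag1 and Jag2, the target repressors Hes1 and Hey1, and Rbpj, which encodes the DNA-binding factor of the pathway. They were found by gene name among the 55232 features of the deposited table, 1 row each, and 8 of the 10 had enough counts to be tested. The sequenced RNA came from mouse pulmonary microvascular endothelial cells, given in the labels as a cell line, which had shared a culture with kidney cells for 12 h and occupied its lower chamber. In the repletion group (3 samples), their partners were TCMK-1 cells, which derive from mouse kidney tubular epithelium, after ATP depletion and repletion, a treatment that the labels abbreviate as IR. In the control group (3 samples), the partners were untreated TCMK-1 cells. The labels give no strain, age or transgene, and they do not state whether the 3 samples per group were independent cultures; p-values therefore reflect the variation among these 6 samples, which could be technical alone.

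Notch receptors are single-pass membrane proteins that are activated by ligands of the Delta-like and Jagged families on a neighbouring cell. Ligand binding lets an ADAM protease and then gamma-secretase cut the receptor, and the freed intracellular domain joins RBPJ and a Mastermind co-activator on DNA, where genes of the HES and HEY families are switched on. In endothelium the pathway is known for tip and stalk cell selection in sprouting vessels, for arterial identity and for the response to flow.

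The libraries held 15582349 to 17817618 counts. Features with any count numbered 22130, 18835 and 20532 in repletion replicates 1, 2 and 3, and 17899, 19185 and 18936 in the control replicates. The part of this spread in the results was not tested. Endothelial markers were present in both groups, with summed levels of 2228 to 2543 CPM (TMM-scaled counts relative to library size) in the repletion group and 2283 to 2523 CPM in control. Of those 10 markers, 9 were tested, 3 rose and 1 fell, against 20.5% and 19.2% of all tested features. Erg, Tek and Egfl7 rose, by 2.08-fold, 1.49-fold and 1.34-fold, and Esam fell, to 0.73 of its control level. Cldn5, a tight junction gene, was near 0 in both groups. The 11 tubular epithelial markers summed to 7.82 to 12.0 CPM in the repletion group and 7.995 to 11.5 CPM in control. Most of that sum came from Aqp1, at 5.84, 10.0 and 7.72 CPM in the repletion libraries and 7.19, 6.41 and 9.86 in control. Epcam, Krt18, Slc34a1 and Umod had 0 counts in all 6 libraries. The 11 fibroblast and mural markers summed to 20.6 to 29.9 CPM in the repletion group and 25.3 to 26.3 CPM in control. Pdgfra made up most of that, at 18.5, 12.3 and 15.4 CPM in the repletion libraries and 16.8, 20.4 and 18.0 in control. The 8 leukocyte markers summed to 218 to 301 CPM in the repletion group and 389 to 428 CPM in control, nearly all of it from Cd68, a lysosomal glycoprotein gene that fell, while Itgam and Cd3e had 0 counts in all 6 libraries; its part in the results was not tested.

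The ligand gene Jag1 and the target gene Hes1 were higher in the repletion group, by 1.66-fold and 2.35-fold, and both passed the test under each of the 17 processing alternatives that were run. Rbpj and Notch4 rose by 1.32-fold each in edgeR's quasi-likelihood test, but did not pass when the dependence of each library on gene length and GC content was taken out. Notch1, Notch2, Dll1 and Jag2 did not pass, and Dll4 and Hey1 were too low to test. In all, 4 of the 8 tested genes rose and none fell at an adjusted p under 0.05, against 20.5% of all 13804 tested features that rose and 19.2% that fell, and their median log2 fold change was 0.40, against 0.00 for all tested features. All 8 log2 fold changes were above 0, where the median of all tested features was 0.00. Those of Notch1, Notch2 and Dll1 were only 0.03, 0.05 and 0.13, and changed sign in 5, 5 and 2 of the 17 alternatives. DESeq2 and limma-voom also called none of the 8 lower. All repletion libraries lay above all control libraries for 4 of the 8, against 25.0% of tested features with that order, 25.4% with the opposite one and 50.3% with either.

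The length and GC dependence was taken out in 2 ways. In the first fit the offsets were not centred within a library, and 2266 features rose and 3479 fell, with a median log2 fold change of -0.08, against 2830 and 2654 without offsets. In that fit Jag1 and Hes1 rose and Notch1 fell, by 0.30 (adjusted p = 0.0380, edgeR's quasi-likelihood test). The offsets were then centred, which kept the scaling between libraries, gave 2693 and 2806, and left Notch1 at -0.22 (adjusted p = 0.125). The centred form was adopted after the results of both had been seen. In a bulk sample, fewer cells with a transcript and less of it per cell cannot be told apart.

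**Figure D1:**
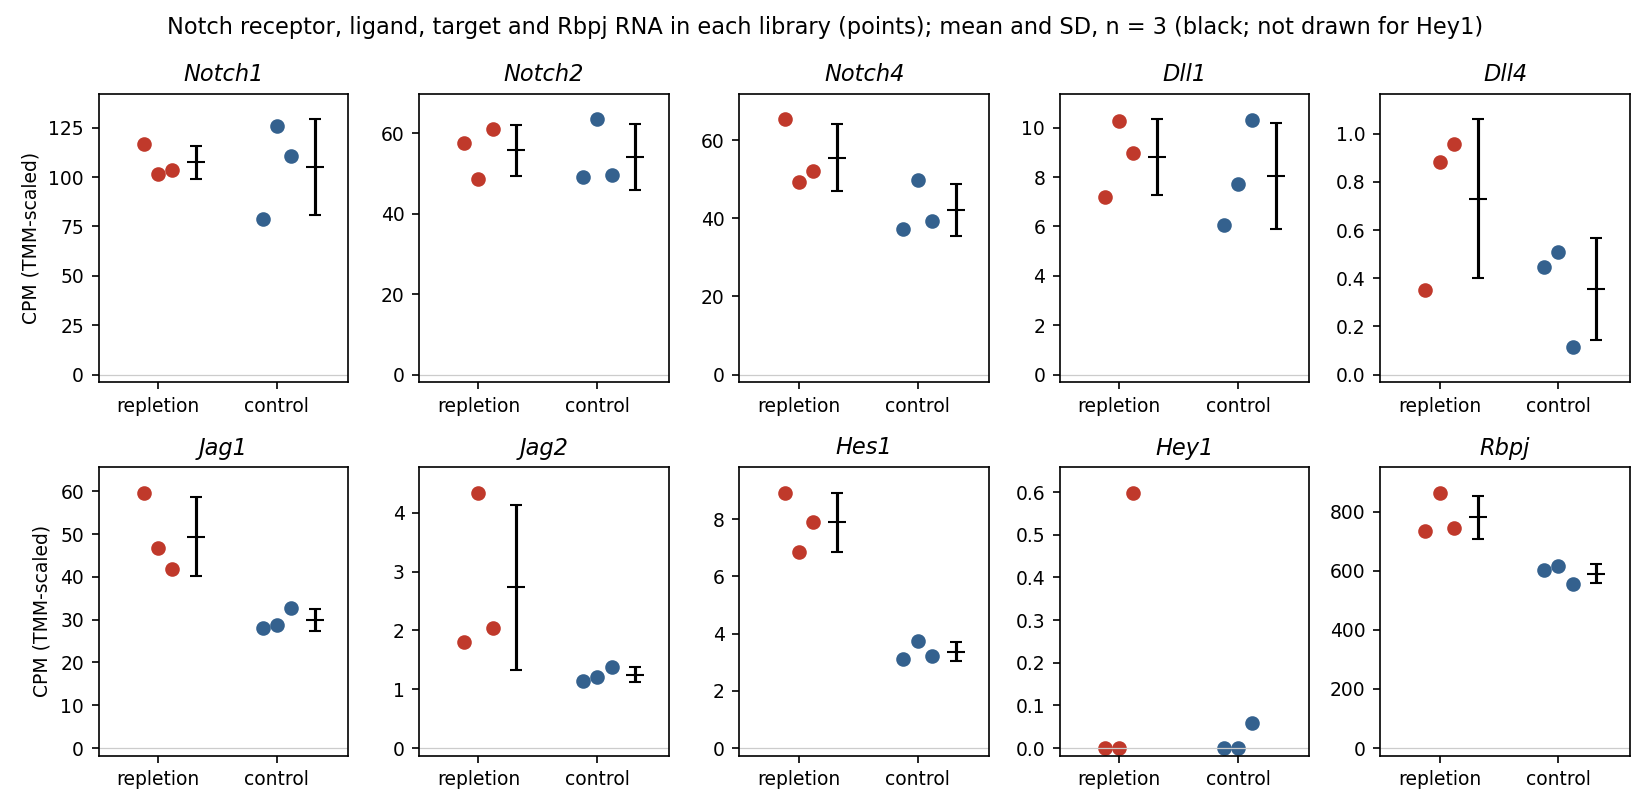
TMM-scaled CPM (y axes, linear, each from 0) of the 10 Notch genes in the 3 repletion and the 3 control libraries, with the mean and SD of each group in black except for Hey1. All repletion libraries lie above all control libraries for Jag1, Jag2, Hes1 and Rbpj.

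Jag1 (ENSMUSG00000027276, chromosome 2, 137081456 to 137116644 in GRCm38, minus strand, 26 exons in its longest annotated transcript) encodes Jagged 1, a ligand that endothelial cells are known to carry. It stood at 59.7, 46.7 and 41.9 CPM in the repletion libraries, against 27.99, 28.7 and 32.8 CPM in the control libraries. Every repletion library was above every control library, and repletion replicate 1 was the highest. Jag1 rose by 0.73 ± 0.14 on the log2 scale (SE; adjusted p = 7.6e-04, edgeR's quasi-likelihood test). Its log2 fold change lay between 0.57 and 0.83 over the alternatives, with adjusted p = 1.7e-05 to 0.00695. The genes whose log2 CPM followed Jag1 most closely across the 6 libraries, among 11681 other tested protein-coding genes, were Acvrl1, Rexo1 and Camta2, with Pearson correlations of 0.997, 0.995 and 0.992; the 6 libraries fall into 2 groups, and these values are a description.

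The promoter of Jag1 is shown because it was the ligand gene that rose. It covers the 250 bases before the RefSeq start, chr2:137116521-137116770 in GRCm38.p6, minus strand, written 5′ to 3′:
Jag1: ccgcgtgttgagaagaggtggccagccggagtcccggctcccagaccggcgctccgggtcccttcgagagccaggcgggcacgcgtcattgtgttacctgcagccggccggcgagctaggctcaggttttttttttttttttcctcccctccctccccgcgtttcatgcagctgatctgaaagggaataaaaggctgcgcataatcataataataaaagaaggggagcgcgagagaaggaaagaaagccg
The core that RBPJ binds, TGGGAA, was sought on both strands in RefSeq windows from 250 bases before to 50 after the start, together with the longer GTGGGAA, which contains it. Of the 10 genes, 8 had a window and Hes1 and Hey1 were not among them. The 8 genes have 10 windows, of which 2, both of Rbpj and overlapping each other, hold TGGGAA, and 25.6% of all 32851 windows hold it. GTGGGAA was in 0 of the 10 windows and in 6.38% of all windows. A match is a string of letters and not a binding site, and the stretch printed for Jag1 has no capitals because it holds no match. The RefSeq start of Jag1 lies inside the annotated gene, which begins at 137116644 on the minus strand.

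Of the other ligand genes, none passed the test. Jag2 (chromosome 12, 112907819 to 112929776), which encodes the second Jagged ligand, had 31, 69 and 34 counts in the repletion libraries and 18, 19 and 24 in control. The groups did not overlap, but repletion replicate 2 had about as many counts as the other repletion libraries together. Its log2 fold change was 1.12 ± 0.45 (SE; adjusted p = 0.0564, edgeR's quasi-likelihood test). Without repletion replicate 2 it was 0.62 (adjusted p = 0.356), and without repletion replicate 1 it passed, at 1.34 (adjusted p = 0.0317); over the alternatives the adjusted p ranged from 0.0317 to 0.356.

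Dll1 (chromosome 17, 15367354 to 15376872), a Delta-like ligand gene, stood at 7.18, 10.3 and 8.98 CPM in the repletion libraries, against 6.04, 7.74 and 10.3 CPM in control. The groups overlapped across most of their range. Its log2 fold change was 0.13 ± 0.23 (SE; adjusted p = 0.695, edgeR's quasi-likelihood test). Dll4 (chromosome 2, 119325784 to 119335962), the ligand best known from endothelial tip cells, had 6, 14 and 16 counts in the repletion libraries and 7, 8 and 2 in control. The ranges overlapped, and Dll4 was removed by the filter on low counts. The authors' deposited table gives it a log2 fold change of 1.05 (adjusted p = 0.458).

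Of the receptor genes, Notch4 rose and the other receptors did not pass. Notch1 (chromosome 2, 26457903 to 26516663, 34 exons) stood at 117, 102 and 104 CPM in the repletion libraries, against 78.6, 126 and 111 CPM in control. The control libraries spanned the whole range of the repletion libraries. Its log2 fold change was 0.03 ± 0.14 (SE; adjusted p = 0.881, edgeR's quasi-likelihood test). Notch2 (chromosome 3, 98013527 to 98150361, 34 exons), the other receptor of broad expression, stood at 57.6, 48.7 and 61.0 CPM in the repletion libraries, against 49.1, 63.5 and 49.5 CPM in control, again with overlap. Its log2 fold change was 0.05 ± 0.13 (SE; adjusted p = 0.813). Both were negative with length and GC offsets: Notch1 at -0.22, or -0.30 without centring, where it passed, and Notch2 at -0.12, or -0.20 without centring, where it did not.

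Notch4 (chromosome 17, 34564268 to 34588503, 30 exons), the receptor whose expression is most restricted to endothelium, stood at 65.4, 49.2 and 52.0 CPM in the repletion libraries, against 37.3, 49.7 and 39.4 CPM in control. Control replicate 2 lay above repletion replicate 2, and the other libraries did not overlap. Notch4 rose by 0.40 ± 0.14 on the log2 scale (SE; adjusted p = 0.0336, edgeR's quasi-likelihood test). With length and GC offsets it was at 0.21 (adjusted p = 0.196), or 0.13 without centring (adjusted p = 0.411). The call was lost when repletion replicate 1 (0.26, 0.155) or 3 (0.44, 0.0589) was left out, and likewise control replicate 1 (0.30, 0.151) or 3 (0.34, 0.134). Adjusted p ranged from 0.0188 to 0.411 over the alternatives.

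**Figure D2:**
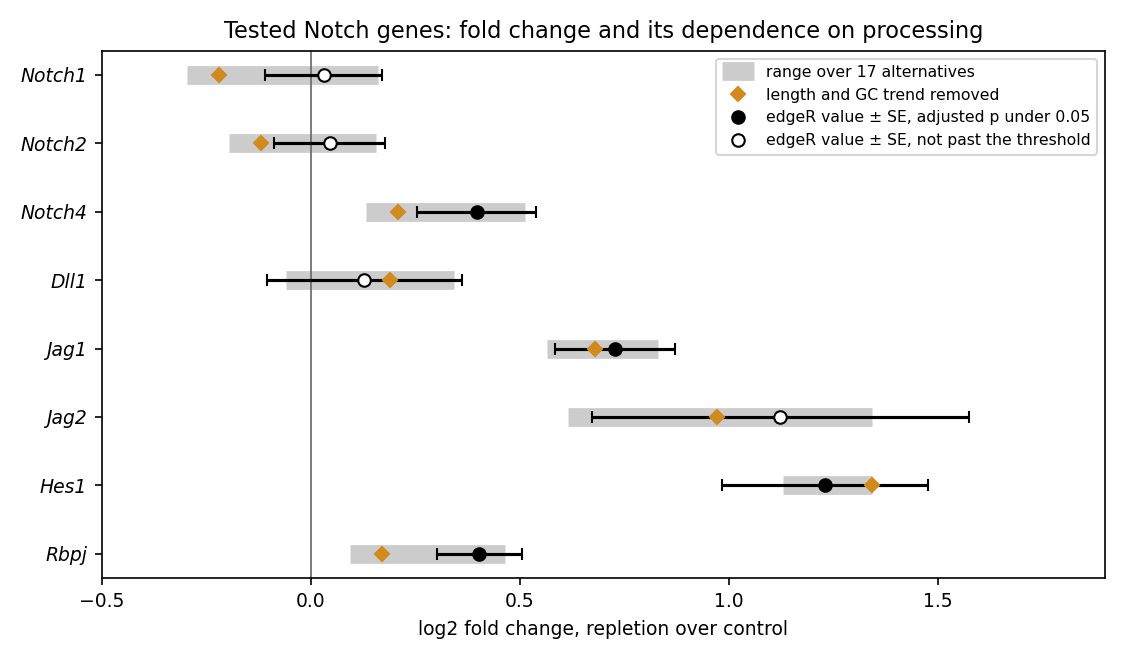
Log2 fold change of repletion over control (x axis) for the 8 tested Notch genes: circles give edgeR's value with its SE, filled where the adjusted p was under 0.05, grey bars the range over 17 alternatives, and diamonds the value with centred length and GC offsets. Jag1 and Hes1 stay to the right of 0.5 throughout, while Rbpj and Notch4 drop to 0.17 and 0.21 at the diamond.

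Hes1 (ENSMUSG00000022528, chromosome 16, 30064384 to 30067796, plus strand), which encodes a basic helix-loop-helix repressor and is the best known direct target of RBPJ, had 153, 109 and 132 counts in the repletion libraries and 49, 59 and 56 in control. In scaled units these were 8.93, 6.86 and 7.90 CPM in the repletion libraries, against 3.12, 3.74 and 3.23 CPM in control. The lowest repletion library was well above the highest control library. Hes1 rose by 1.23 ± 0.25 on the log2 scale (SE; adjusted p = 8.3e-04, edgeR's quasi-likelihood test), and its value lay between 1.13 and 1.34 over the alternatives. Hey1 (chromosome 3, 8663359 to 8667256), a related repressor gene, had 0, 0 and 10 counts in the repletion libraries and 0, 0 and 1 in control. All of its repletion counts came from replicate 3, and it was not tested; the authors' deposited table gives it an adjusted p of 1.

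Rbpj (ENSMUSG00000039191, chromosome 5, 53466152 to 53657362, plus strand) stood at 734, 865 and 744 CPM in the repletion libraries, against 601, 616 and 554 CPM in control. The groups did not overlap, and repletion replicate 2 was the highest. Rbpj rose by 0.40 ± 0.10 on the log2 scale (SE; adjusted p = 0.00446, edgeR's quasi-likelihood test). With centred length and GC offsets its log2 fold change was 0.17 (adjusted p = 0.124), and without centring 0.09 (adjusted p = 0.435); over the alternatives adjusted p ranged from 3.9e-04 to 0.435. Its transcript is 99.7% identical over 1441 bases to that of Rbpj-ps3, a processed pseudogene with 477 counts over the 6 libraries against 67504 for Rbpj. A small part of the Rbpj reads may have been divided between gene and pseudogene. Shorter stretches match many other features at 95% identity or more, among them 131 bases of an annotated transcript of Nedd4, which had 143754 counts. How many reads these stretches share was not tested. Among the other genes, Notch1, Notch2, Notch4, Dll1, Dll4 and Jag2 overlap annotated features, of which 0610009E02Rik, opposite Notch1, had the most counts at 33.

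Hes1 and Hey1 had no window to search. Among the 8 members with a RefSeq window, Rbpj was the one with the core, which 25.6% of all windows hold. The first of the 2 RefSeq windows of Rbpj holds TGGGAA on the plus strand, first base at -149 from the start. It also holds TGGGAA on the minus strand, where its letters read TTCCCA, first base at -65. The 250 bases before that start, chr5:53590096-53590345 in GRCm38.p6, plus strand, are written 5′ to 3′ with both matches in capitals:
Rbpj: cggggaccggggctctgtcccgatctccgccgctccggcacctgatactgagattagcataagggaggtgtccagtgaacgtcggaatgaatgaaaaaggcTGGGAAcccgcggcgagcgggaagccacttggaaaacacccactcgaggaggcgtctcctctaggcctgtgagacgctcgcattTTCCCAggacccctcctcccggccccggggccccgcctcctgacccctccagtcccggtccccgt
The second window starts further on and holds only the minus-strand match. Both RefSeq starts lie inside the annotated Rbpj gene, which begins at 53466152.

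Levels can be compared between genes per length, for which the deposited FPKM (fragments scaled by gene length and library size) were used. Rbpj was by far the highest, at 61.0 ± 6.04 FPKM in the repletion group and 45.7 ± 2.47 in control (SD, n = 3 each), above 92.7% of tested protein-coding genes. In the repletion group Jag1 followed at 8.44 ± 1.54, then Notch1 at 7.51 ± 0.53 and Notch4 at 6.85 ± 1.03, with ranges that overlapped from each to the next. Below these, Notch2 at 5.14 ± 0.56, Hes1 at 3.86 ± 0.48, Dll1 at 2.08 ± 0.38 and Jag2 at 0.391 ± 0.203 each lay clear of the next, and Dll4 overlapped Hey1.

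The order was different in control for Jag1 and Hes1. There Notch1 came second at 7.30 ± 1.68 FPKM, and Notch4 at 5.16 ± 0.81, Jag1 at 5.05 ± 0.44 and Notch2 at 4.95 ± 0.75 overlapped in turn. Dll1 at 1.88 ± 0.50 overlapped Hes1 at 1.63 ± 0.16, and Jag2 at 0.176 ± 0.0176 and Dll4 at 0.0913 ± 0.0540 were each clear of the next.

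The 3 receptor genes summed to 21.4, 17.8 and 19.3 FPKM in the repletion libraries, against 14.5, 20.6 and 17.1 FPKM in control. The 4 ligand genes summed to 12.2, 11.3 and 9.80 FPKM in the repletion libraries, against 6.44, 6.98 and 8.19 FPKM in control. The receptor sums overlapped between the groups, and the ligand sums did not. The exact permutation test, two-sided, gave p = 0.4 for the receptor sum and p = 0.1 for the ligand sum, the smallest that 3 against 3 samples allow, and 0.45 and 0.3 after adjustment over the 9 sums and shares compared. Jag1 made up 75.7% ± 6.65 of summed ligand FPKM in the repletion group and 70.4% ± 3.04 in control (SD, n = 3 each; exact permutation p = 0.3). Notch4 made up 35.0% ± 2.18 of summed receptor FPKM in the repletion group and 29.8% ± 1.62 in control, with no overlap (exact permutation p = 0.1, adjusted 0.3). Dll1 made up 13.8%, 21.5% and 21.6% of summed ligand FPKM in the repletion libraries, against 22.0%, 25.9% and 29.5% in control, also with no overlap (exact permutation p = 0.1, adjusted 0.3).

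**Figure D3:**
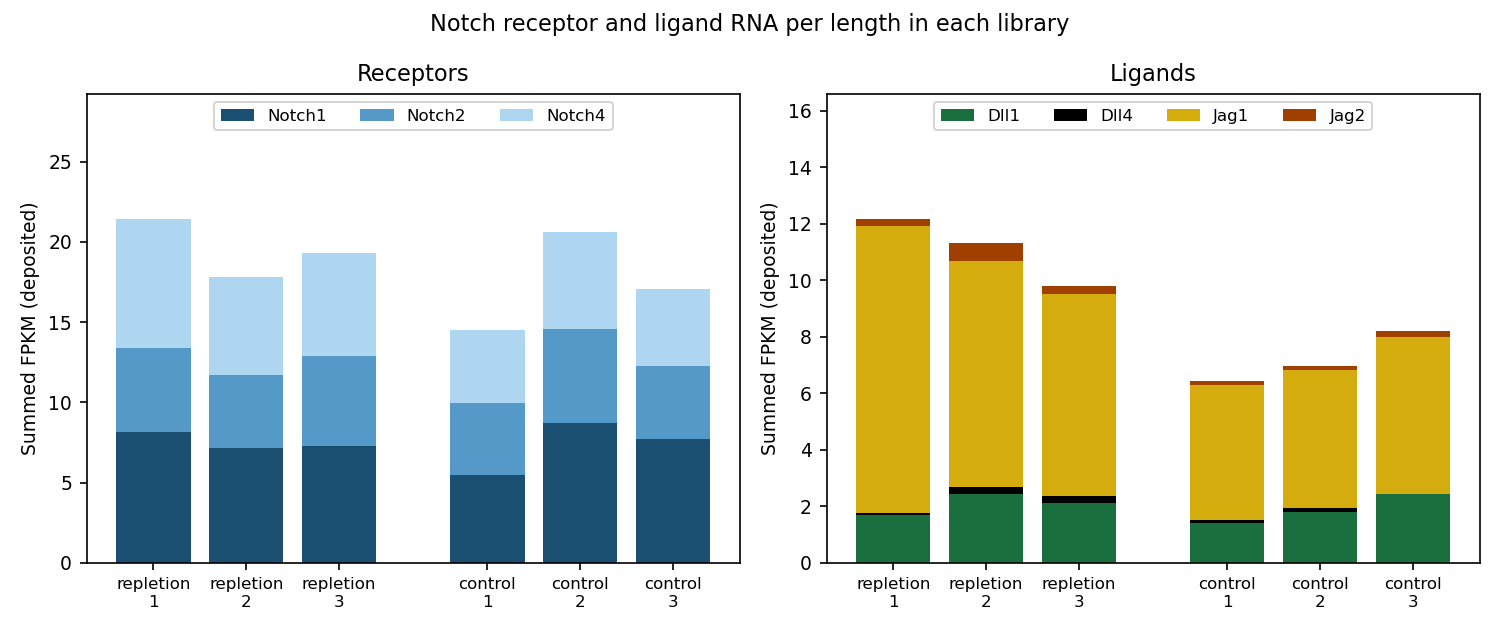
Summed FPKM as deposited (y axes, linear) of the 3 receptor genes and the 4 ligand genes in each library, stacked by gene, with repletion libraries on the left of each panel. Jag1 fills most of each ligand bar, and the ligand bars reach 9.80 to 12.2 in the repletion group and 6.44 to 8.19 in control.

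The rest of the pathway was read from 9 lists of 90 genes, of which 71 were tested. Of these, 28 rose and 11 fell, against the shares of 20.5% and 19.2% over all tested features, and their median log2 fold change was 0.21. A count of 0 in a library allows up to 0.173 to 0.191 CPM at these depths, counting error only, and 7 of the 90 genes had 0 counts in all 6 libraries: Dlk1, Hey2, Heyl, Gja4, Gja5, Sox17 and Bmx.

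Notch glycosylation enzymes add sugars to the extracellular repeats of the receptors, which sets how they respond to each ligand. Of 8 tested, 5 rose and none fell, against 20.5% and 19.2% of all tested features, with a median log2 fold change of 0.50. Lfng, the Lunatic Fringe gene, stood at 5.95, 10.95 and 8.80 CPM in the repletion libraries, against 0.509, 1.52 and 1.61 CPM in control, with no overlap. It rose by 2.80 ± 0.37 on the log2 scale (SE; adjusted p = 2.1e-05, edgeR's quasi-likelihood test), and by 2.42 to 3.06 over the alternatives. Pofut1, which adds the O-fucose that Fringe enzymes extend, rose by 0.79, from counts that did not overlap, and Gxylt1, Eogt and Xxylt1, which add xylose or GlcNAc, rose by 0.82, 0.52 and 0.48. The other Fringe genes Mfng and Rfng had log2 fold changes of 0.17 and 0.03 and did not pass. Poglut1 went the other way, at -0.27, and did not pass (adjusted p = 0.0605, edgeR's quasi-likelihood test). All of its repletion libraries lay below all control libraries.

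Of 9 tested genes for ADAM proteases, gamma-secretase and furin, 1 rose and 3 fell (20.5% and 19.2% over all tested features), with a median of -0.10. The nicastrin gene Ncstn, a gamma-secretase subunit, fell by 0.52. Ncstn overlaps Copa on the opposite strand, which had 36598 counts against 12294, so its value is uncertain. Psenen fell by 0.51, but was not called when repletion replicate 2 (-0.41, adjusted p = 0.0794) or control replicate 3 (-0.34, 0.167) was left out or with length and GC offsets (-0.33, 0.115, centred; -0.41, 0.0520, not centred), and shares 306 identical bases with Gm12396. Aph1a rose by 0.41, but was not called when repletion replicate 3 (0.31, adjusted p = 0.104), control replicate 2 (0.37, 0.0640) or control replicate 3 (0.35, 0.0792) was left out. The sheddase genes Adam10 and Adam17 stood at 0.25 and -0.17 on the log2 scale and did not pass (adjusted p = 0.0783 and 0.206).

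Of 14 tested genes that move or degrade ligands and receptors, 3 rose and 4 fell, near the shares of 20.5% and 19.2% over all tested features, with a median of -0.06. Aak1, a kinase of clathrin-mediated uptake, rose by 0.98, or by 0.56 with centred length and GC offsets and 0.49 without centring. Neurl1b and Neurl3, of the Neuralized family of ubiquitin ligases, rose by 0.77 and 0.59. The Deltex genes Dtx2, Dtx3 and Dtx3l fell by 0.83, 0.42 and 0.48; Dtx3l overlaps Parp9 on the opposite strand, and its value is uncertain. Mib2 fell by 0.63, or by 0.52 without control replicate 3, where it did not pass (adjusted p = 0.0532). Mib1, the main ligand ubiquitin ligase, stood at 0.21 (adjusted p = 0.124).

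Among partners of RBPJ, genes on both sides rose. Of 7 tested co-activator genes, 3 rose and none fell (20.5% and 19.2% over all tested features), with a median of 0.17. The Mastermind gene Maml2 stood at 34.8, 32.5 and 30.8 CPM in the repletion libraries, against 12.2, 13.8 and 11.1 CPM in control, and rose by 1.41 ± 0.15 on the log2 scale (SE; adjusted p = 2.4e-06, edgeR's quasi-likelihood test). The acetyltransferase genes Crebbp and Ep300 rose by 0.80 and 0.62, whereas Maml1 stood at 0.17 and did not pass. With length and GC offsets Ep300 was at 0.35 with centring and 0.27 without, and Crebbp at 0.48 without centring. Of 16 tested co-repressor genes, 8 rose and 1 fell, against the same shares over all tested features, with a median of 0.19. Spen, a scaffold of the RBPJ repressor complex, rose by 0.86, L3mbtl3 by 0.85, and the Groucho family genes Tle4 and Tle3 by 0.82 and 0.76; with length and GC offsets that were not centred, Spen was at 0.54 and Tle3 at 0.49. Among co-repressor genes that rose, Hdac1, Tle1 and Fhl1 each lost the call without at least 1 library. Cir1 fell by 0.90, but it has a near-identical copy, Gm2810, and overlaps Scrn3, so its value is uncertain; Spen overlaps Zbtb17 on the opposite strand.

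Of the other target genes, 6 of 10 were tested, 3 rose and 1 fell (20.5% and 19.2% over all tested features), with a median of 0.40. Nrarp, a direct target whose product dampens Notch signalling, stood at 13.2, 10.1 and 13.0 CPM in the repletion libraries, against 4.64, 6.60 and 5.54 CPM in control. The groups did not overlap, as for Hes1. Nrarp rose by 1.11 ± 0.22 on the log2 scale (SE; adjusted p = 6.6e-04, edgeR's quasi-likelihood test), and by 0.98 to 1.23 over the alternatives. Bcl2 and Ccnd1, a survival and a cyclin gene that have many other inputs, rose by 1.23 and 0.59, Snai2 fell by 0.52, and Myc stood at 0.22 and did not pass. Hey2 and Heyl had 0 counts in all 6 libraries and Hes5 had 1 count in 1 library.

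Of 8 arterial genes, 4 were tested, 2 rose and 1 fell, against 20.5% and 19.2% of all tested features. The ephrin gene Efnb2 rose by 0.70, the co-receptor gene Nrp1 rose by 1.29 and the chemokine receptor gene Cxcr4 fell by 1.98. The guidance receptor gene Unc5b stood at -0.14 and did not pass. Of 5 venous genes, 4 were tested, 3 rose and 1 fell, against the same shares. Nr2f2, the gene of the venous transcription factor COUP-TFII, stood at 94.1, 96.8 and 96.1 CPM in the repletion libraries, against 47.3, 39.5 and 39.7 CPM in control, and rose by 1.18 ± 0.11 on the log2 scale (SE; adjusted p = 9.9e-07, edgeR's quasi-likelihood test). Flrt2 rose by 1.26 and Nrp2 fell by 0.51, or by 0.80 with length and GC offsets that were not centred, and Ephb4 rose by 0.32 but lost the call under 8 of the 17 alternatives. The 3 further receptor and ligand genes that were tested, Notch3, Cntn1 and Mfap5, did not pass (adjusted p = 0.586, 0.316 and 0.680, edgeR's quasi-likelihood test).

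**Figure D4:**
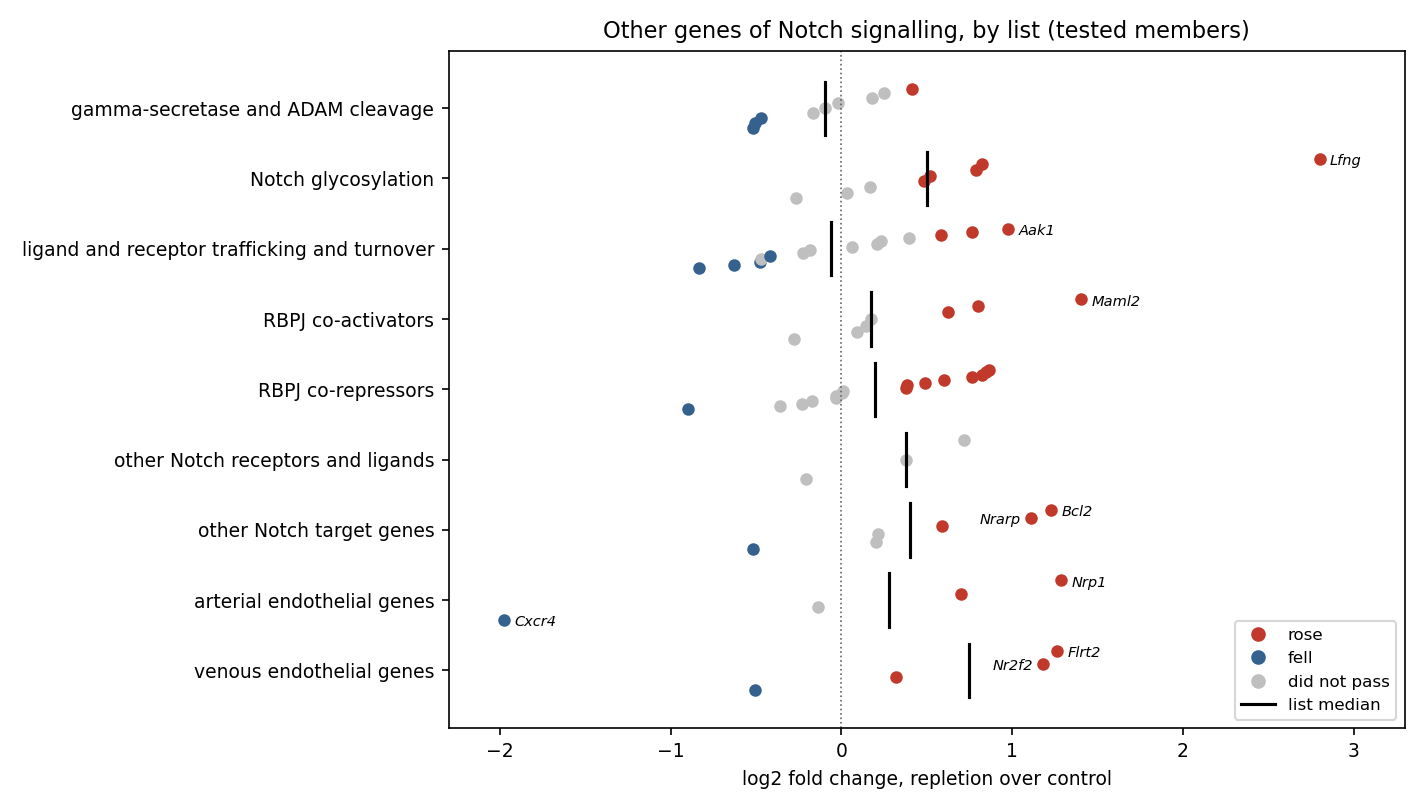
Log2 fold change of repletion over control (x axis) of the 71 tested genes in 9 lists of Notch signalling (rows), each point a gene, coloured by whether it rose, fell or did not pass, with the list median as a black bar. Lfng lies farthest to the right at 2.80 and Cxcr4 farthest to the left at -1.98.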

How the data were processed

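RNA-seq counts of 6 samples were used, 3 in each group by the sample titles. Per the submitters' processing notes the tools were DESeq2 1.20.0, HISAT2 2.0.5 and featureCounts 1.5.0-p3 and the build was GRCm38.p6, with no role stated. Whether counting used strand is not given in the sources used here; overlapping genes on opposite strands cannot be told apart. The deposited table holds raw counts per feature as whole numbers, and, per the file headers, FPKM. It also holds the authors' log2 fold changes and p-values, quoted only where named, and the authors' group means, a normalised signal that was not used.

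Of 55232 features, 13804 passed filterByExpr and were tested with edgeR 4.0.16 in R 4.3.3 (TMM factors, quasi-likelihood test, two-sided, Benjamini-Hochberg over all tested features, threshold 0.05). CPM are TMM-scaled, and the SE was derived from the F statistic. The common biological coefficient of variation was 14.1%. No 2 replicates agreed within sampling noise (chi-square per feature between 8.98 and 26.5). Copies were sought among GENCODE M21 transcripts with BLAST at 95% identity, over at least 100 bases for the members and 30% of the transcript for other genes. Alternatives were DESeq2 1.42.0, limma-voom (limma 3.58.1), other scalings and filters, protein-coding genes only, a replicate block, each replicate left out, and offsets for length and GC content. The offsets were first fitted without centring and then centred within each library; centring was adopted after both results had been seen, and the form without it is reported as an added alternative. The members, lists, tests and alternatives were chosen with earlier results of these data known. The rule for named genes took all members and, of each list, the gene of smallest p among those that rose and those that fell, and allowed further genes past the threshold; genes of the lists that are named without passing were picked with their values known. The test was tried on simulated data. The values of some genes of the lists are not reported here, though the counts include them.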

Additional observations from a re-analysis of the deposited data

How the results depend on the processing

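Each tested member was refitted under 17 alternatives, and Jag1 and Hes1 kept their direction and their call under all 17. With centred length and GC offsets, 2 of the 8 tested members rose instead of 4: Notch4 was at 0.21 and Rbpj at 0.17 on the log2 scale, neither past the threshold, and Notch1 and Notch2 changed sign, to -0.22 and -0.12. Without centring, the form fitted first and added as an alternative after the data were seen, 2 members rose and 1 fell, as Notch1 was at -0.295 (past the threshold), Notch2 at -0.196, Notch4 at 0.132 and Rbpj at 0.0941. Features that rose and fell then numbered 2266 and 3479, against 2830 and 2654, and 2693 and 2806 with centring. Across features, the log2 fold change had a Spearman correlation of 0.20 with length and -0.06 with GC content. Notch1 also changed sign with no low-count filter, at -0.00678. Leaving out 1 replicate gave -0.159 to 0.161 for Notch1, -0.0370 to 0.157 for Notch2, 0.259 to 0.513 for Notch4, -0.0583 to 0.342 for Dll1 and 0.616 to 1.34 for Jag2. Jag2 passed with library size only (1.18), with at least 1 CPM in 3 samples (1.13) and with protein-coding genes only (1.13). The cause of these changes was not tested.

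Same-numbered samples did not deviate together, with correlations of -0.0757 to 0.0552 over 3 pairs. The labels do not say that the number marks a pairing, and 3 pairs are too few to decide it. With a replicate block 3 members passed, as Notch4 was at 0.40 (adjusted p = 0.0607, edgeR's quasi-likelihood test), and 2485 features rose and 2353 fell.

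Of the 39 pathway genes that passed, 31 passed under every alternative. With no low-count filter the adjusted p of Dll4 and Hey1 were 0.474 and 0.388 in edgeR's quasi-likelihood test.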
